A study of Mus musculus with 12 samples.

Results

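The genes described here are the subunits of the hypoxia-inducible factors (HIF) and the proteins that tie HIF to oxygen, chosen by symbol from the count table: Hif1a, Epas1, Hif3a, Arnt, Arnt2, Egln1, Egln2, Egln3, Hif1an and Vhl. They are 10 of the 54447 rows of the table. RNA was sequenced from mouse embryonic fibroblasts, per the labels, and the study's methods name the line NIH3T3, an established mouse fibroblast line. The cells carried, on a lentiviral vector, a doxycycline-inducible promoter driving N-VEGF, the N-terminal part of the long VEGF protein, or NLS-N-VEGF, the same part fused to the nuclear localization sequence of Cas9. All 4 groups were transduced, puromycin-selected and kept in normoxia per the methods. For either population, NLS-N-VEGF or N-VEGF, there was an uninduced group and an induced group, the latter given doxycycline (dox). No group without the vector is compared here, so dox and the induced protein cannot be told apart within 1 population. The number of selected pools of cells behind each population is not stated, so population and pool cannot be told apart. The question put to these genes was whether their mRNA differs when N-VEGF is induced, and when it is directed to the nucleus.

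HIF is a pair of proteins, an alpha subunit (HIF-1α from Hif1a, HIF-2α from Epas1, HIF-3α from Hif3a) and a beta subunit (ARNT or ARNT2), that binds DNA at a short core sequence and turns on genes of glycolysis, angiogenesis and oxygen delivery. In the presence of oxygen the prolyl hydroxylases PHD2 (Egln1), PHD1 (Egln2) and PHD3 (Egln3) mark the alpha subunit, VHL recognises the mark as part of a ubiquitin ligase and the protein is degraded, while FIH (Hif1an) hydroxylates an asparagine that blocks binding of the coactivators p300 and CBP. Control is thus mostly of the alpha protein, which mRNA counts do not show. Egln1 and Egln3 are themselves well-known targets of HIF.

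Each group had 3 libraries, with the replicate labels 1_120519, 2_120519 and 2_290419. The second part of a label reads like a date, but what it marks is not said. It is called suffix a in 1_120519 and 2_120519 and suffix b in 2_290419, which gives 2 and 1 libraries in every group. Nothing in the labels says that the libraries of a group came from separate cultures, so p-values measure only the spread between these samples. Total counts per library lay between 13549331 and 18982127, and 3 counts, taken as the smallest detectable level, were 0.158 to 0.221 counts per 1000000 counts of a library (CPM). Reads of the construct insert numbered 35 to 268 in the libraries with dox and 5 to 12 in those without. In CPM of the total counts, the insert was at 2.53, 2.58 and 10.5 in induced NLS-N-VEGF libraries 1_120519, 2_120519 and 2_290419. In induced N-VEGF libraries it was at 7.56, 7.99 and 18.0 in the same order. The insert level was thus unequal between the induced groups and between the suffixes, and its part in the comparisons was not tested. The summed level of 10 fibroblast markers was 11729 to 14584 normalised CPM, against 0.88 to 1.87 for 5 epithelial markers (1 at 0 in every library), 2.89 to 5.01 for 5 endothelial markers and 8.24 to 13.5 for 5 macrophage or blood markers. Library 1_120519 of N-VEGF stood apart by the fewest genes detected, 19976 against up to 22889. Values of the main edgeR fits that rest on it are given with and without it. The fits within suffix a alone and those with the replicate label as a block include it and were not repeated without it.

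All 10 genes were matched to Ensembl genes of build GRCm38. Hif1a (ENSMUSG00000021109) lies on chromosome 12 at 73901375-73947530, Egln3 on the same chromosome at 54178981-54203860, Egln1 on chromosome 8 at 124908587-124949324, Arnt on chromosome 3 at 95434388-95497240 and Vhl on chromosome 6 at 113623959-113631633. Arnt2 (84246278-84410176) and Egln2 (27158658-27166802) both lie on chromosome 7, as does Hif3a (17031507-17062427); Hif1an lies on chromosome 19 at 44562850-44576274 and Epas1 on chromosome 17. Counts were summed over exons, and whether strand was used is not stated: 2.51% of the exon bases of Hif1a overlap a gene model on the same strand and 5.60% one on the opposite strand, 2.78% of those of Arnt2 and 0.393% of those of Egln2 overlap an opposite-strand gene, and the exons of the others overlap none.

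The core of the HIF binding site is ACGTG or GCGTG, and promoters of these genes were searched for both on both strands, from 250 bases before to 50 bases after the RefSeq start site (GRCm38.p6). Of the 10 genes, 9 had such a window; Epas1 had none. ACGTG was present in Hif1a, Egln1, Egln2 and Egln3, and GCGTG in Hif3a, Arnt, Egln1 and Egln2, while Arnt2, Hif1an and Vhl held neither. Of all 32851 windows, 19.6% held ACGTG, 32.4% held GCGTG and 43.8% held at least 1 of them. The stretches that hold the matches are given for Hif1a, the only abundant alpha subunit, and for Egln1 and Egln3, the hydroxylase genes known as HIF targets. They are 100 bases each, 5′ to 3′ on the gene's strand, with the core in capitals: Hif1a at chr12:73907717-73907816 (plus strand, inside the longer Ensembl gene model), Egln1 at chr8:124949295-124949394 (minus strand) and Egln3 at chr12:54204025-54204124 (minus strand).
Hif1a: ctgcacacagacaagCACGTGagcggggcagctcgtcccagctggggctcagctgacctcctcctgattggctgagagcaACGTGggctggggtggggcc
Egln1: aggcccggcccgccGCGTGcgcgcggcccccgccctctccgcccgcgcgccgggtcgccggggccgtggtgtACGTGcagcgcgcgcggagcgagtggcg
Egln3: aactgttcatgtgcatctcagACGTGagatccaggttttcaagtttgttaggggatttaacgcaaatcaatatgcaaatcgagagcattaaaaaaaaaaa
In Hif1a the first capitals read CACGTG, in which ACGTG is found on both strands at once, so that its window counted 3 matches in 2 places. The stretch of Egln1 is 86% G and C and that of Egln3 35%. A match is a description of the letters and not of binding.

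Hif1a was the alpha subunit with abundant mRNA in these cells. Its raw counts were 1936 to 4499 per library, whereas Epas1 had 0 to 3 and Hif3a 0 to 4 counts per library, 12 and 21 in all 12 libraries together. Epas1 had 0 counts in 4 libraries, and both genes failed the filter on low counts, so that 8 of the 10 genes were tested. Of those, Egln3 had the fewest reads, 122 to 296 per library, and Vhl 317 to 468; the others had at least 395 in every library. Per kilobase of merged exon, Hif1a made up 99.8% to 100% of the alpha subunit mRNA in every library. Epas1 and Hif3a were mostly at or under the level of 3 counts, and no fold change is given for them.

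On the scale of normalised CPM per kilobase of exon, the only one on which genes are compared here, Hif1a had the highest mean of the 10 genes, 31.2 (range 22.0 to 40.9). Egln2 and Egln1 followed at 21.9 each, Egln2 above Egln1 in 4 of 12 libraries, so their order is not settled. Arnt had a mean of 11.3 and Hif1an of 9.40, with Arnt the higher in 10 of 12 libraries. Vhl came next at 8.01, below Hif1an in 12 of 12 libraries although their ranges overlap. Arnt2 at 4.75 and Egln3 at 4.42 were close, with Arnt2 the higher in 8 of 12. The ranges of Egln1 and Arnt, of Vhl and Arnt2, and of Egln3 and Hif3a did not overlap. In bulk RNA, fewer cells that express a gene and less of its RNA per cell cannot be told apart. Exon length here counts every annotated exon of a gene, which can be longer than the transcript in use.

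**Figure D1:**
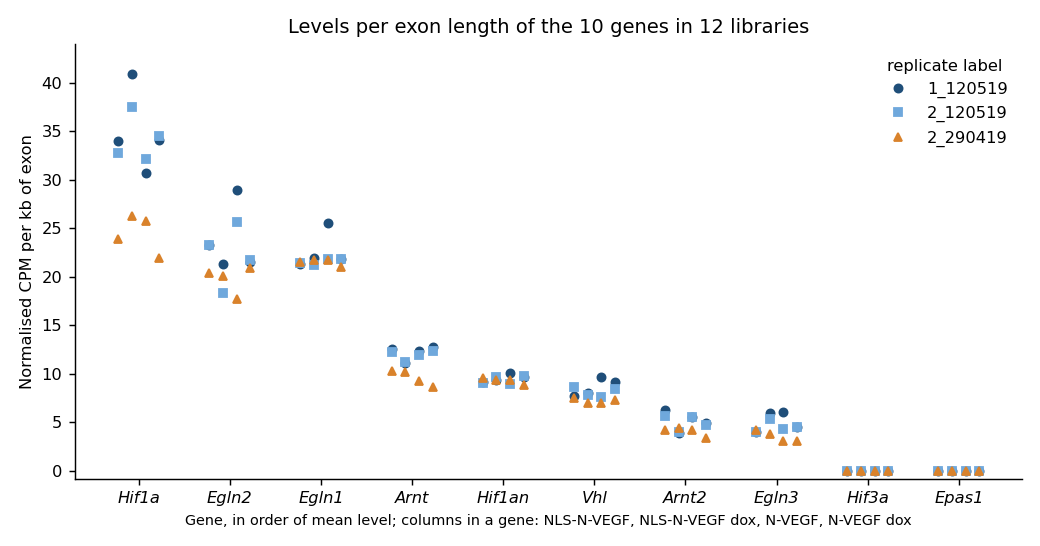
Normalised CPM per kilobase of exon (y axis) of the 10 genes, in order of their mean (x axis), 1 point per library with shape and colour for the replicate label and 4 columns per gene for the groups. Hif1a lies at 22.0 to 40.9, Egln1 and Egln2 near 21.9, and Epas1 and Hif3a at the bottom of the axis.

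The prolyl hydroxylases were shared out about evenly between Egln1, at 42.1% to 51.1% of the 3 genes' level per kilobase, and Egln2, at 40.9% to 49.5%, with Egln3 at 6.82% to 12.1%. In the libraries with suffix a Egln1 took 42.1% to 47.2%, and in those with suffix b it took 46.7% to 51.1%. Among the beta subunits Arnt took 66.6% to 73.9% and Arnt2 the rest.

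The levels of the 8 tested genes are shown by library in the plot of normalised CPM by group. In uninduced NLS-N-VEGF cells Hif1a was at 200.4, 193.3 and 140.8 CPM in libraries 1_120519, 2_120519 and 2_290419. In induced cells it was at 241.0, 221.0 and 154.9, higher in each of the 3 same-label pairs, by 0.27, 0.19 and 0.14 on the log2 scale. Of all 13608 genes tested, 17.2% were higher with dox in all 3 such pairs, and the Hif1a levels of the 2 groups overlapped because the induced suffix b library was below the uninduced suffix a libraries. In N-VEGF cells Hif1a was at 180.8, 189.7 and 152.1 CPM uninduced and at 201.2, 203.4 and 129.6 induced, a log2 ratio of 0.15, 0.10 and -0.23 per pair. Group means, uninduced then induced, were 178 ± 32.6 and 206 ± 45.1 for NLS-N-VEGF, and 174 ± 19.6 and 178 ± 42.0 for N-VEGF (SD, n = 3 each).

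**Figure D2:**
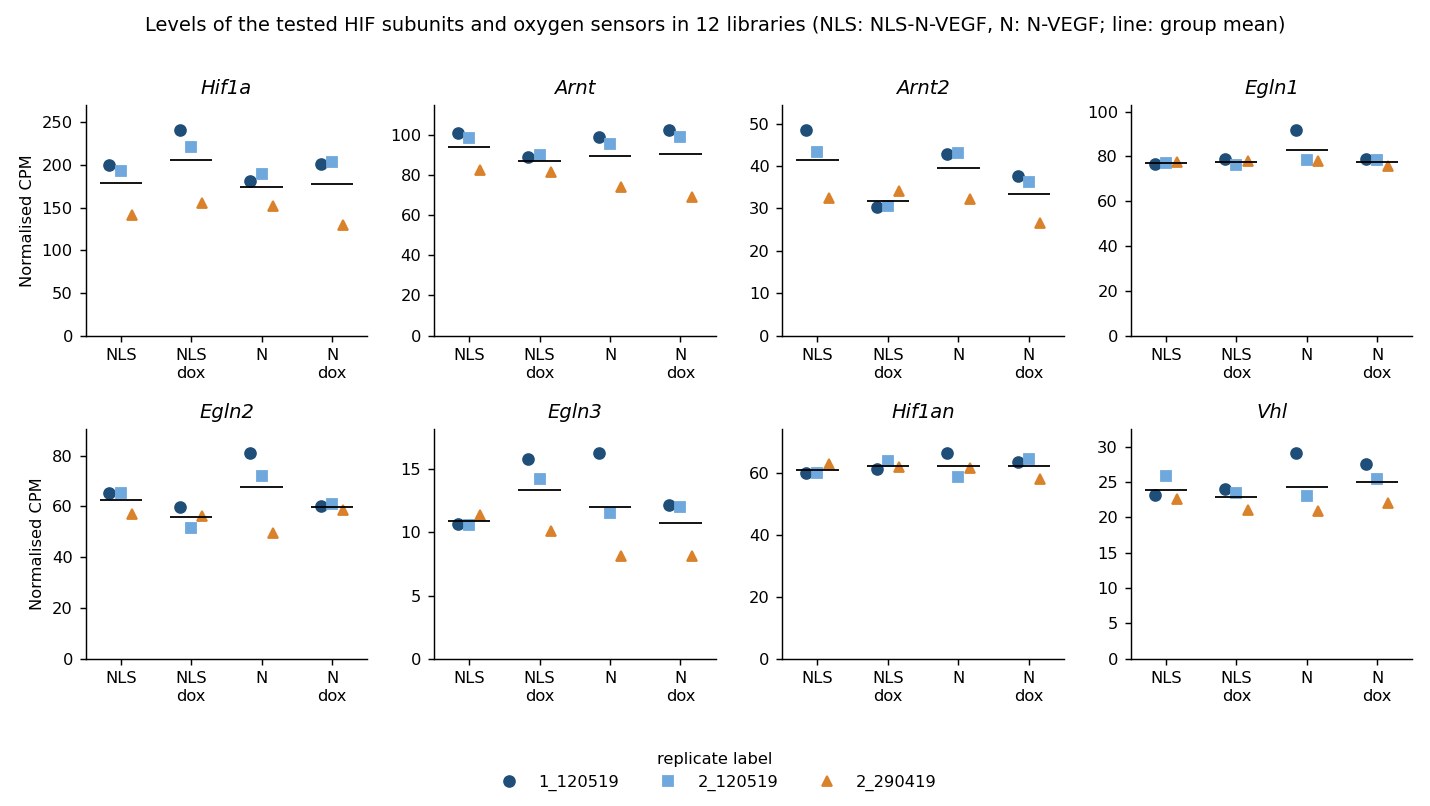
Normalised CPM (y axis, from 0) of the 8 tested genes in each library, by group (x axis); points are libraries, with shape and colour for the replicate label, and black lines are group means. Hif1a of label 2_290419 lies at 129.6 to 154.9, below all other libraries, while Egln1 and Hif1an vary little.

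With edgeR's quasi-likelihood test and Benjamini-Hochberg adjustment over all genes, none of the 8 genes passed the threshold for the effect of dox on NLS-N-VEGF cells, and 0.022% of all genes tested did. Without adjustment 1 of the 8 had a p under 0.05, Arnt2, against 2.34% of all genes, and DESeq2 called none either. The log2 fold change of Hif1a was 0.21 (SE 0.20, 95% interval -0.24 to 0.65, adjusted p = 0.9998 by edgeR). It ran from 0.06 without NLS-N-VEGF 2_290419 to 0.38 without NLS-N-VEGF dox 2_290419, with 1 library left out at a time. No gene of the 8 had levels that did not overlap between these groups, against 9.25% of all genes tested. Libraries were taken to pair across groups by their replicate label, which the data do not settle beyond the suffix. With the label as a block the Hif1a change was 0.20 (SE 0.08, interval 0.03 to 0.37) at an edgeR adjusted p of 0.575. In that blocked fit 0 of the 8 passed the adjusted threshold, as did 0.125% of all genes, and 2 of the 8, Hif1a and Arnt2, had an unadjusted p under 0.05 against 7.27% of all genes.

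Arnt2 encodes a beta subunit best known from neural tissue. In NLS-N-VEGF cells it was at 48.5, 43.3 and 32.4 CPM uninduced and at 30.3, 30.5 and 34.2 induced, a log2 ratio of -0.68, -0.50 and 0.08 in the pairs 1_120519, 2_120519 and 2_290419. The 2 pairs of suffix a were lower with dox and the pair of suffix b was not. The log2 fold change was -0.39 (SE 0.17, interval -0.76 to -0.01, edgeR adjusted p = 0.9998). Among the libraries of suffix a alone, 2 per group, it was -0.60 (SE 0.08, interval -0.79 to -0.42) with an edgeR adjusted p of 0.00841, and Arnt2 was then the 1 gene of the 8 called, against 0.814% of all genes. In that subset 5 of the 8 had an unadjusted p under 0.05, against 11.4% of all genes.

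In N-VEGF cells Arnt2 was at 42.9, 43.1 and 32.3 CPM uninduced and at 37.7, 36.2 and 26.5 induced, lower in all 3 pairs by 0.19 to 0.29 on the log2 scale. The fitted change was -0.24 (SE 0.17, interval -0.61 to 0.14, edgeR adjusted p = 0.9999). The mean dox effect over both populations was -0.31 (SE 0.12, interval -0.58 to -0.05), again not past the threshold by edgeR (adjusted p = 0.99995). The blocked estimate was -0.30, with an edgeR adjusted p of 0.157. Of the 8 genes 0 were called in that mean effect, against 0.0588% of all genes, and 1, Arnt2, had an unadjusted p under 0.05, against 3.11%; DESeq2 also called 0. With the block 0 of the 8 passed, against 0.566%. Within suffix a alone the mean effect on Arnt2 was -0.42 (adjusted p = 0.00938 by edgeR), the 1 call among the 8 genes, against 1.01% of all genes.

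Arnt, the ubiquitous beta subunit, did not pass in any dox contrast. For NLS-N-VEGF its level was 100.8, 98.5 and 82.7 CPM uninduced and 89.0, 89.9 and 81.5 induced, a fitted change of -0.12 (interval -0.45 to 0.21). As a share of the level per kilobase of Arnt and Arnt2 together, Arnt stood at 68.8%, 68.1% and 68.8% in the 3 uninduced N-VEGF libraries and at 72.3%, 72.4% and 71.6% in the induced ones. These groups did not overlap, and the share for NLS-N-VEGF was 66.6%, 68.6% and 71.0% uninduced and 73.8%, 73.9% and 69.6% induced, which did overlap. This share was chosen after its values were seen and was not tested; with 3 libraries against 3 an exact permutation test could not go below 0.10.

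Egln3, the least abundant of the prolyl hydroxylases, was at 10.7, 10.6 and 11.4 CPM in uninduced and at 15.9, 14.2 and 10.1 in induced NLS-N-VEGF cells. Again the 2 pairs of suffix a were higher, by 0.57 and 0.43 on the log2 scale, and the pair of suffix b had a log2 ratio of -0.17. The fitted change was 0.30 (SE 0.24, interval -0.23 to 0.83, edgeR adjusted p = 0.9998), and within suffix a alone 0.50 (interval 0.15 to 0.85) at an adjusted p of 0.233. In N-VEGF cells Egln3 was at 16.3, 11.5 and 8.16 CPM uninduced and at 12.2, 11.99 and 8.17 induced, a fitted change of -0.15 (interval -0.68 to 0.38). That sign rested on library 1_120519 of N-VEGF, without which the change was 0.14, and on library 2_290419 of N-VEGF dox, without which it was 0.01.

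Egln2 was at 65.2, 65.3 and 57.0 CPM in uninduced and at 59.6, 51.5 and 56.2 in induced NLS-N-VEGF cells. In N-VEGF cells it was at 80.9, 71.8 and 49.7 uninduced and at 60.2, 60.8 and 58.5 induced. The fitted changes were -0.16 (interval -0.48 to 0.15) and -0.17 (interval -0.49 to 0.14), and the mean effect was -0.17 (interval -0.39 to 0.06). Without library 1_120519 of N-VEGF, the change in N-VEGF cells was -0.02 and the mean effect -0.09. Egln2 was lower with dox in both suffix a pairs of each population, but the suffix b pair of N-VEGF cells had the opposite order.

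Egln1, the main prolyl hydroxylase in normoxia, was at 75.7 to 78.8 CPM in 11 libraries and at 91.9 in library 1_120519 of N-VEGF. Hif1an lay between 58.3 and 66.6 CPM and Vhl between 20.9 and 29.1 CPM. The dox effects in NLS-N-VEGF cells were 0.01 for Egln1 (interval -0.16 to 0.18), 0.03 for Hif1an (interval -0.14 to 0.20) and -0.07 for Vhl (interval -0.35 to 0.22). The intervals of Egln1 and Hif1an are the narrowest of the 8.

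In N-VEGF cells 0 of the 8 genes were called by edgeR, against 0.0367% of all genes, 0 had an unadjusted p under 0.05, and DESeq2 called 0. The 8 log2 fold changes ran from -0.24 (Arnt2) to 0.04 (Vhl). Without library 1_120519 of N-VEGF the change of Vhl was 0.19, and without N-VEGF 2_290419 it was -0.08. Egln1 was at -0.09, and at -0.01 without library 1_120519 of N-VEGF. With the replicate block 0 of the 8 were called, against 0.110% of all genes. Within suffix a alone 0 were called, against 0.120%, with Egln2 at -0.35 (edgeR adjusted p = 0.364) and Arnt2 at -0.23 (adjusted p = 0.445).

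**Figure D3:**
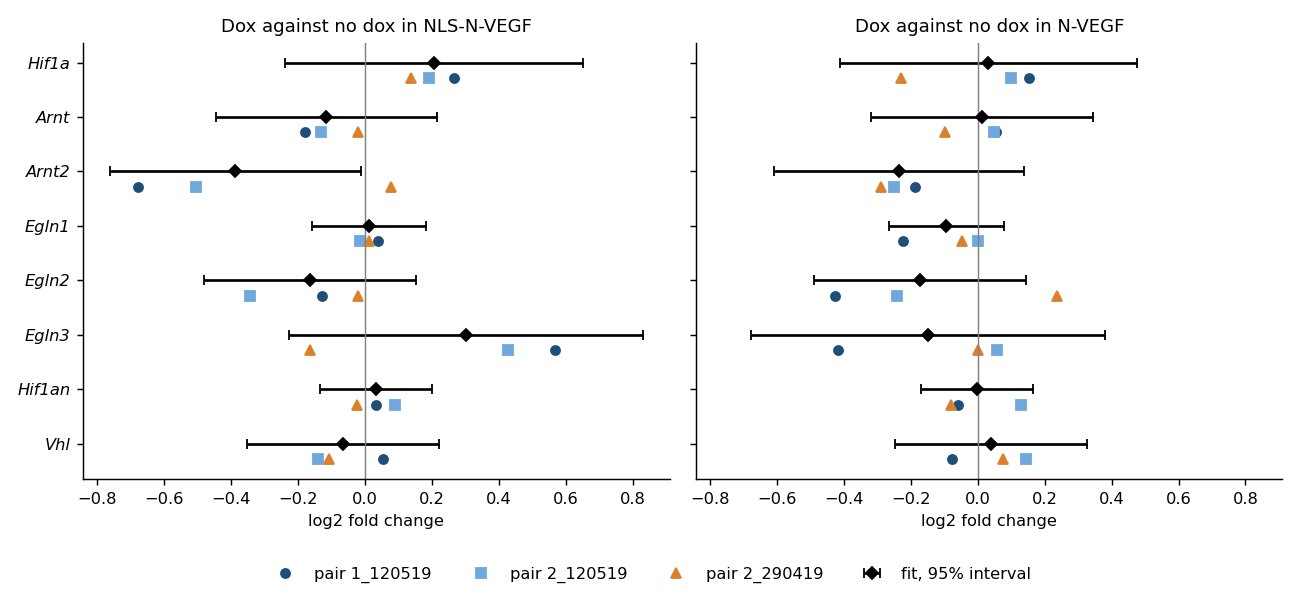
The log2 fold change of dox against no dox (x axis) for the 8 tested genes in NLS-N-VEGF cells (left) and N-VEGF cells (right); black diamonds and bars are edgeR estimates with 95% intervals and coloured points are the log2 ratios of same-label pairs. Only the interval of Arnt2 in NLS-N-VEGF cells, -0.76 to -0.01, leaves out 0, without adjustment for the number of genes.

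The dox effects of the 2 populations were compared directly. Of the 8 genes 0 differed by edgeR (0.0% of all genes did, 0 of the 8 at an unadjusted p under 0.05, 0 by DESeq2). The difference was 0.17 for Hif1a (SE 0.29, interval -0.45 to 0.80) and 0.45 for Egln3 (SE 0.34, interval -0.30 to 1.20). Without library 1_120519 of N-VEGF the difference for Egln3 was 0.17. With the replicate block the difference was 0.19 for Hif1a (SE 0.11, interval -0.05 to 0.43) and 0.42 for Egln3 (SE 0.22, interval -0.04 to 0.88). Within suffix a alone it was 0.11 for Hif1a (interval -0.12 to 0.34) and 0.71 for Egln3 (interval 0.22 to 1.20, edgeR adjusted p = 0.691). Arnt2 was there at -0.37 (interval -0.63 to -0.11, edgeR adjusted p = 0.696). The Egln3 log2 ratios of the N-VEGF pairs in suffix a were -0.42 in 1_120519 and 0.06 in 2_120519. Of the 8 genes 0 were called with the block or within suffix a, against 0.0% and 0.0299% of all genes.

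The induced populations differed in 0 of the 8 genes by edgeR, against 0.0% of all genes, with 0 of the 8 at an unadjusted p under 0.05 (1.18% of all genes) and 0 by DESeq2. The log2 level of Hif1a was higher in the NLS-N-VEGF libraries by 0.21 (SE 0.20, interval -0.24 to 0.65), and that of Egln3 by 0.31 (SE 0.24, interval -0.22 to 0.84), neither past the threshold. With 1 library left out, the Hif1a difference ran from 0.02 (without N-VEGF dox 2_290419) to 0.38 (without NLS-N-VEGF dox 2_290419) and that of Egln3 from 0.15 to 0.48, without the same libraries. With the replicate block 0 of the 8 were called, against 0.0147% of all genes. In that blocked fit Hif1a was the 1 gene of the 8 with an unadjusted p under 0.05 (0.21, interval 0.04 to 0.38, edgeR adjusted p = 0.992), against 4.56% of all genes. Without dox the same comparison also gave 0 of the 8 (0.0% of all genes, 0 at an unadjusted p under 0.05, 0 by DESeq2), with log2 differences from -0.14 (Egln3) to 0.07. Without library 1_120519 of N-VEGF the Egln3 difference turned to 0.14, and without N-VEGF 2_290419 it was -0.37. These contrasts share libraries with the dox contrasts and are not separate evidence.

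Most of these genes differed between the suffixes of the labels. With group in the model, 6 of the 8 genes were lower in the suffix b libraries than in the suffix a libraries and 0 were higher, by edgeR at an adjusted p under 0.05. Of all genes tested 45.6% were called, 23.5% lower and 22.2% higher. What the suffix stands for is not given in the labels, and whatever changed with it cannot be told apart here.

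Hif1a fell by 0.49 on the log2 scale (SE 0.06, interval -0.62 to -0.37, adjusted p = 8.03e-06 by edgeR). Its level was 180.8, 200.8 and 241.0 CPM (lowest, median and highest) in the 8 libraries of suffix a and 129.6, 146.5 and 154.9 in the 4 of suffix b, with no overlap. Arnt fell by 0.33 (SE 0.06, edgeR adjusted p = 0.0003) and also did not overlap, with 69.3 to 82.7 CPM in suffix b against 89.0 to 102.5 in suffix a. Vhl narrowly did not overlap either, with 20.9 to 22.6 CPM in suffix b against 23.0 to 29.1 in suffix a. Non-overlap in that direction held for 14.9% of all genes tested. Hif1a, Arnt and Vhl had their lowest library in suffix b in all 4 groups, which held for 20.0% of all genes.

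Egln3 fell by 0.45 (SE 0.12, edgeR adjusted p = 0.00724), Arnt2 by 0.30 (SE 0.09, adjusted p = 0.0108), Vhl by 0.22 (SE 0.07, adjusted p = 0.0225) and Egln2 by 0.21 (SE 0.08, adjusted p = 0.0494). Egln3 was lower in 3 of 4 groups and higher in uninduced NLS-N-VEGF cells, where the log2 ratio was 0.09, and Arnt2 was higher only in induced NLS-N-VEGF cells, at 0.17. For Egln2 the lowering was -0.62 in uninduced N-VEGF cells and between -0.20 and 0.02 in the other groups. Without the N-VEGF library 2_290419 the Egln2 difference was -0.08 at an edgeR adjusted p of 0.371, and over the 12 libraries left out in turn the call of Egln2 stood only without N-VEGF 1_120519, N-VEGF dox 2_290419, NLS-N-VEGF dox 2_120519 or NLS-N-VEGF dox 2_290419. Arnt2 was no longer called without NLS-N-VEGF 2_290419 (-0.24, edgeR adjusted p = 0.0738) or N-VEGF dox 2_290419 (-0.25, adjusted p = 0.0696), and Vhl without N-VEGF 2_290419 (-0.19, adjusted p = 0.087) or N-VEGF dox 2_290419 (-0.21, adjusted p = 0.078). Egln1 (-0.04, interval -0.15 to 0.07) and Hif1an (-0.03, interval -0.14 to 0.08) did not pass. Without library 1_120519 of N-VEGF the same 6 genes had an edgeR adjusted p under 0.05, against 51.6% of all genes, with Hif1a at -0.52 and Egln3 at -0.38.

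**Figure D4:**
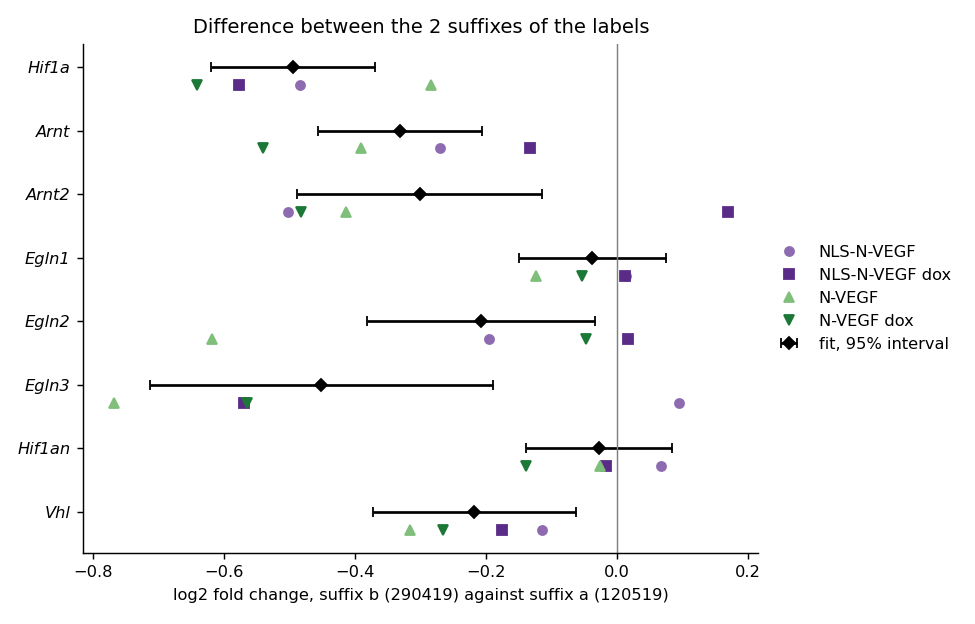
The log2 fold change of suffix b against suffix a (x axis) for the 8 tested genes; black diamonds and bars are edgeR estimates with 95% intervals and coloured points are the log2 ratios within each group, the suffix b library over the mean of the 2 libraries of suffix a. All 4 points of Hif1a, Arnt and Vhl lie below 0, and the bars of Egln1 and Hif1an cross it.

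Whether the dox effect itself depended on the suffix was also tested. Of the 8 genes 0 passed by edgeR, against 0.0% of all genes, and DESeq2 called 0. At an unadjusted p under 0.05 there were 2, Egln2 and Hif1a, against 6.81% of all genes. The difference of the dox effects (suffix b minus suffix a) was 0.39 for Egln2 (interval 0.10 to 0.68, edgeR adjusted p = 0.728), -0.23 for Hif1a (interval -0.44 to -0.01, adjusted p = 0.728) and 0.31 for Arnt2 (interval -0.03 to 0.66, adjusted p = 0.736). With 1 library left out, Egln2 ran from 0.18, without N-VEGF 2_290419, to 0.62, without NLS-N-VEGF 2_290419. In the same way Hif1a ran from -0.31 to -0.12 and Arnt2 from -0.02 to 0.63.

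Other genes of the pathway were read from 4 lists. In the dox contrasts of each population, of their mean and of their difference, 0 of the 58 genes of these lists that were tested passed with edgeR. At an unadjusted p under 0.05 there were 2 in NLS-N-VEGF cells, 1 in N-VEGF cells, 1 in the mean and 0 in the difference, where the shares of all genes were 2.34%, 1.48%, 3.11% and 0.852%. In the mean dox effect DESeq2 and edgeR with the replicate block each called 1, Adm, the gene of the vasodilator adrenomedullin. Of all genes DESeq2 called 0.0676% and edgeR with the block 0.566%. Adm was named after its values were seen and fell by 0.57 with the block (edgeR adjusted p = 0.0158). In the other 3 contrasts DESeq2 called 0. In the same blocked fit the fibroblast marker Pdgfra fell by 0.49 (edgeR adjusted p = 0.00419). Pdgfra was the 1 called of the 10 fibroblast markers, of which 5 were above 0 (median -0.04). Its part in the Adm and Arnt2 values was not tested. Among the 12 common HIF targets, dox in NLS-N-VEGF cells gave log2 fold changes from -0.60 to 0.34 with a median of -0.02, and in N-VEGF cells from -0.54 to 0.06 with a median of -0.10, where the median of all genes was 0.00 in both. Among the libraries of suffix a alone, 2 of the 12 targets passed in NLS-N-VEGF cells, against 0.814% of all genes. They were Vegfa, higher by 0.51 (SE 0.09, edgeR adjusted p = 0.0294), and Adm, which fell by 0.84 (SE 0.14, adjusted p = 0.0273). Both are named after their values were seen. The construct carries the N-terminal part of the long VEGF coding sequence, which lies before the classical VEGF start. The part of the construct in the Vegfa counts was not tested. In the same libraries Pdgfra fell by 0.55 (SE 0.08, edgeR adjusted p = 0.0131) and the macrophage marker Csf1r by 0.82 (SE 0.14, adjusted p = 0.0273). In the mean effect within suffix a Pdgfra and Csf1r fell by 0.50 and 0.54. Pdgfra was in either contrast the 1 called of the 10 fibroblast markers, of which 3 were above 0. Csf1r was the 1 called of 2 macrophage or blood markers tested. The part of Pdgfra and Csf1r in the Arnt2 differences was not tested.

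Between the suffixes, 9 of the 12 HIF targets were lower in the suffix b libraries and 0 higher, against 23.5% lower and 22.2% higher among all genes, with a median of -0.34 against 0.01 for all genes. The mTORC1 inhibitor Ddit4 fell by 1.09 (SE 0.07), the pyruvate dehydrogenase kinase Pdk1 by 0.95 (SE 0.08), Ndrg1 by 0.77 (SE 0.07) and the mitophagy receptor Bnip3 by 0.65 (SE 0.09). Their edgeR adjusted p-values ran from 3.66e-08 to 4.43e-05. The count of 9 lower and 0 higher held under all 17 alternatives for the suffix contrast.

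Of 14 tested members among the other oxygen-dependent dioxygenases, 8 were lower and 1 higher in the suffix b libraries (median -0.33), where 45.6% of all genes were called and 23.5% were lower. Most are 2-oxoglutarate-dependent like the prolyl hydroxylases, whereas Ado encodes a thiol dioxygenase. The histone demethylases Kdm5b, Kdm4b and Kdm5a fell by 0.85, 0.59 and 0.50, and the hydroxylase gene Jmjd6 was higher by 0.46 (edgeR adjusted p = 4e-06). Of 11 tested bHLH-PAS factors and their coactivators, the structural family of the HIF subunits, 5 were lower and 1 higher (median -0.28), a share called not far from the 45.6% of all genes. Ahrr, the repressor of the aryl hydrocarbon receptor, fell by 0.63, the coactivators Ncoa2 and Ncoa1 by 0.34 and 0.30, and the neuronal factor Npas4 was higher by 0.51. Without N-VEGF dox 2_290419 the counts were 3 lower and 0 higher, where 35.4% of all genes were called.

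Of 21 tested partners and modifiers of VHL and HIF, 8 were higher and 3 lower in the suffix b libraries (median 0.09), against 22.2% and 23.5% of all genes, and the share called was near the 45.6% of all genes. Eloc, the elongin that joins VHL to its ligase, was higher by 0.58 (SE 0.10), Cops5, a subunit of the COP9 signalosome, by 0.40 (SE 0.05) and Cited2, which competes with HIF for the coactivators, by 0.37 (SE 0.08), whereas Ep300, the gene of p300, fell by 0.47 (SE 0.07). Without N-VEGF 1_120519 the counts were 11 higher and 5 lower, where 51.6% of all genes were called. Without N-VEGF dox 2_290419 they were 4 and 3, where 35.4% of all genes were called. Of the 10 fibroblast markers 4 were higher and 4 lower in suffix b, led by Pdgfra and Col3a1, which fell by 1.32 and 1.22, more than any of the HIF subunits and oxygen sensors. Of the markers of other cell types that were tested, the endothelial Tie1 (1 of 3) fell by 1.30 (SE 0.43). Its raw counts were low, 1 to 18 per library, with 2, 8, 4 and 1 in the suffix b libraries. The macrophage markers Csf1r and Cd68 changed by -0.43 and 0.83 (2 of 2), and 0 of 1 epithelial marker passed by edgeR. The part of these markers in the suffix differences was not tested.

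The 5 genes whose log2 level was most like that of Hif1a over the 12 libraries were Tcf12, Pank3, Hivep1, Lrp12 and Gm14139, out of 12058 genes compared. Pearson's r was 0.979 for the first 3 and 0.978 for the other two, and 0.895 to 0.902 after the mean of each suffix was subtracted. Among the other members r with Hif1a was highest for Arnt, 0.745, and for Egln3, 0.712, and after subtraction of the suffix means these were -0.232 and 0.305. The r largest in size after that subtraction was that of Egln2, -0.739. Vhl, Arnt2 and Egln1 were then at -0.493, -0.472 and -0.338, and Hif1an at 0.118. The libraries of a suffix share its differences, so these r are descriptions.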

How the data were processed

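The deposited values are raw read counts per gene: the authors prepared TruSeq RNA v2 libraries, sequenced single reads on a NextSeq 550, trimmed them with Trim Galore and cutadapt 1.10, aligned them with TopHat2 2.1.0 to GRCm38 and counted with HTSeq-count 0.6.1. The strand option is not given in the sources used here. Groups were taken from the labels.

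The genes and the lists were chosen with earlier results of these data known. All 10 genes were named always; of each list, genes past the threshold in a contrast, at most 4 by absolute log2 fold change; and the 5 genes most like Hif1a (log2 CPM, pseudocount 2, mean of at least 1 CPM).

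Counts were tested with edgeR 4.0.16 in R 4.3.3 (quasi-likelihood F test, filterByExpr by group, 13608 genes, TMM scaling, 1 mean per group over 12 libraries, two-sided, Benjamini-Hochberg over all genes, threshold 0.05). The suffix contrast used group plus suffix, and its product with dox was added for the dox effect between suffixes. Intervals are at the 95% level. The script was tested on simulated data. Levels are TMM-normalised CPM, and exon lengths are from GENCODE M21. Alternatives were DESeq2 1.42.0, RLE scaling, no filter, at least 10 counts in every library, the replicate label as a block, suffix as a covariate, suffix a alone, the libraries numbered 2 alone and each library left out. The floor of 3 counts covers counting error only, since reads carried no molecular identifiers, whereas intervals of fold changes come from the edgeR fits and cover the spread between libraries.

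Replicate labels were taken to pair libraries across groups. Deviations from the group means over 12058 genes correlated above 0.1 in 18 of 18 same-label pairs (mean 0.59, lowest 0.40), against a mean of -0.25 in 36 other pairs. Libraries with the same label also share the suffix, and the suffix difference by itself raises these correlations. The values therefore cannot show whether 1_120519 and 2_120519 are separate pairs. No 2 libraries of a group agreed within sampling noise (chi-square per gene at least 1.73).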

Additional observations from a re-analysis of the deposited data

How the results depend on the processing

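Of 548 alternative values of 30 fold changes, 524 kept their direction and their side of the threshold. For the suffix contrast, Hif1a, Arnt and Egln3 were called under all 17 alternatives, Arnt2 under 15, Vhl under 14 and Egln2 under 6, while Egln1 and Hif1an were called under none. The number of the 8 genes called there was 6 with edgeR and DESeq2, 5 with RLE scaling, 4 among the libraries numbered 2 alone and 4 to 6 with 1 library left out. Of all genes 45.6% were called with edgeR, 38.2% with DESeq2 and 45.5% with RLE scaling. The share was 41.5% among the libraries numbered 2 alone and 35.4% to 51.6% with 1 library left out. For dox against no dox in NLS-N-VEGF cells and for the mean dox effect, 0 of the 8 genes were called except among the libraries of suffix a alone. There 1 was called in each, Arnt2, against 0.814% and 1.01% of all genes. The cause was not tested; that fit uses 8 libraries. Leaving out 1 library called 0 in each dox contrast. Of these 548 values 6 reversed sign, each with 1 library left out. Over all contrasts of the 8 genes, 82 of 1184 alternative values had the opposite sign, 71 with 1 library left out and 11 under other alternatives, the latter where the fold change was at most 0.0127 in size. Hif1an between suffixes ran from -0.0692 to 0.0049 and Hif1a in the difference of dox effects from -0.0079 to 0.344, with the reversed end of both without N-VEGF dox 2_290419. Egln3 in N-VEGF cells ran from -0.384 to 0.135, the latter without N-VEGF 1_120519, and was 0.0125 without N-VEGF dox 2_290419; between the uninduced populations it ran from -0.3692 to 0.1441, the latter again without N-VEGF 1_120519. Arnt2 in the dox effect between suffixes ran from -0.0241, without NLS-N-VEGF dox 2_290419, to 0.627. The replicate block changed no call of the 10 genes and left 0 called in each dox contrast, while over all genes it raised the calls of the mean dox effect from 8 to 77. With 3 libraries a group, the SE of the Hif1a change in NLS-N-VEGF cells was 0.20, against 0.08 with the block.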
